A study of Mus musculus with 16 samples.

Results

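The genes of ileal bile acid transport and of the bile acid receptor FXR were described in RNA of the ileum mucosa. They are 9 genes, taken by symbol from 46078 genes in the deposited count table: Slc10a2, Fabp6, Slc51a, Slc51b, Fgf15, Nr1h4, Nr0b2, Abcc2 and Abcc3. Each of the 16 libraries came from 1 C57Bl/6 mouse, either wild type (WT) or with a knockout of Schlafen 3 (Slfn3KO), a gene studied as a regulator of enterocyte differentiation, for which the sources name no restriction to a tissue. There were 4 mice in each of the groups female WT, female Slfn3KO, male WT and male Slfn3KO. The labels give an age of 8 weeks, the study's methods give an older age and describe the genotypes as littermates, and the mice received no treatment that the labels name.

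Bile acids are made in the liver, enter the upper bowel and are taken back up in the terminal ileum. There the sodium-dependent carrier encoded by Slc10a2 brings them across the brush border, the binding protein encoded by Fabp6 holds them inside the enterocyte, and the paired subunits encoded by Slc51a and Slc51b release them toward the portal blood. Bile acids in the cell bind FXR, encoded by Nr1h4, which switches on Fabp6, Slc51a, Slc51b, the hormone gene Fgf15 and the co-repressor gene Nr0b2, and FGF15 in turn lowers bile acid synthesis in the liver. Uptake and its genes are concentrated in the distal small bowel, while Slc2a2, the basolateral glucose transporter, is highest in the proximal small bowel, so its level was used here as a stand-in for the position of each sample along the bowel. The study treats the same gene, named Glut2, as a differentiation marker. In its RNA sequencing such markers, Glut2 among them, did not differ significantly between the genotypes. By qPCR it reports lower levels of Glut2 in Slfn3KO females. Position and genotype therefore cannot be told apart from its level in those females.

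The tissue label was checked first. Slc10a2 was at least 51.4 CPM (read counts scaled to the size of the library) and Fabp6 at least 1831 CPM in all 16 libraries. Slc2a2 ran from 0.503 to 194 CPM, a 385-fold range, and Gata4, a transcription factor of the proximal small bowel, ran from 1.13 to 127 CPM. Slc2a2 was 0.503, 0.557, 4.32 and 1.06 CPM in female Slfn3KO 1 to 4, 149.5, 62.5, 1.09 and 2.44 CPM in female WT 1 to 4, 33.7, 143, 2.72 and 93.4 CPM in male WT 1 to 4, and 23.7, 53.3, 10.2 and 194 CPM in male Slfn3KO 1 to 4. The female Slfn3KO libraries were therefore all at the low end, and each of the other groups held at least 2 libraries at 53.3 CPM or more. Libraries held 20823279 to 30813117 counts on genes, and 3 counts, taken as the floor, corresponded to 0.0974 to 0.144 CPM depending on the library, for counting error only.

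Some libraries stood apart or went against their labels. Slfn3 itself had 0 to 2 counts in each Slfn3KO library and 0 to 19 counts in each WT library, so the targeted gene was near the floor in both genotypes. In the libraries labelled female WT 3 and 4, Xist was nearly absent (0.121 and 0 CPM) and the Y-linked gene Ddx3y was present (41.0 and 49.4 CPM). In those labelled male WT 3 and 4 the reverse held, with 442 and 394 CPM of Xist and 0 and 0.0408 CPM of Ddx3y. The sex in these 4 libraries was opposite to the label. The names, groups and sex covariate below are those of the labels. No fit used the sex that these transcripts give. The same libraries were high in B cell and follicle markers, whose 6 genes summed to 322, 414, 658 and 138 CPM in female WT 3 and 4 and male WT 3 and 4, to at most 99.2 CPM in the other WT libraries and to at most 95.9 CPM in the Slfn3KO libraries. Cd79a, a defining B cell marker, was above 0 in every library, at 0.257 to 90.1 CPM. Values without these 4 libraries are therefore given beside the results below. The 5 smooth muscle markers, all above 0 in every library, summed to 86.9 CPM in male WT 4, 66.5 and 30.9 CPM in female Slfn3KO 2 and 1 and 49.8 CPM in male Slfn3KO 3, and to 3.19 to 14.8 CPM in the other 12 libraries. The 6 enterocyte markers were lowest in female Slfn3KO 2 and 1, at a sum of 12013 and 15718 CPM, beside 18625 to 35499 CPM in the other 14. In whole mucosa, fewer cells of a type and less RNA per cell cannot be told apart.

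The promoters of 3 genes are shown first, Fabp6 because it held the most abundant transcript of the set and a motif of FXR, and Slc10a2 and Nr1h4 because both followed Slc2a2 most closely among the genes that fell with it. The sequences are from RefSeq on build GRCm38.p6, which had an entry for 7 of the 9 genes, and run 5′ to 3′ on the minus strand, on which all of these genes lie. Fabp6 is given from 250 bases upstream of the start to the start, at chr11:43601563-43601812, Slc10a2 from 250 to 65 bases upstream, at chr8:5105352-5105537, and Nr1h4 from 250 bases upstream, at chr10:89506659-89506908. Capitals mark, in Fabp6, the inverted repeat bound by FXR, which is AGGTCA followed after 1 free base by TGACCT, and in Slc10a2 and Nr1h4 the palindrome bound by HNF1, which is GTTAAT followed after 1 free base by ATTAAC, each with up to 2 mismatches among its 12 fixed letters.
Fabp6: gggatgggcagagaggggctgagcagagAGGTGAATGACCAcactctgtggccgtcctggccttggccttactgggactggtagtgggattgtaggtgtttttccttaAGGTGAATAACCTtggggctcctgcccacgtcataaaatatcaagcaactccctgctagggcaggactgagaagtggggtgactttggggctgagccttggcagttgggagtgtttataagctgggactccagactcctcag
Slc10a2: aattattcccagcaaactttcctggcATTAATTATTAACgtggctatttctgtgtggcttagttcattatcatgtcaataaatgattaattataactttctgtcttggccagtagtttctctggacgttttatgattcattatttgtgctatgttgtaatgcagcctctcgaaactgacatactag
Nr1h4: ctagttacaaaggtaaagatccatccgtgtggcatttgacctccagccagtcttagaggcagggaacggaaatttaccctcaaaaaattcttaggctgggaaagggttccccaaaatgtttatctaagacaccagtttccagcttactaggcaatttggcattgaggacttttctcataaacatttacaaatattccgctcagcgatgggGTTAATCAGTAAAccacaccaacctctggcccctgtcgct
Both strands of 250 bases were searched. The FXR repeat was matched in Fabp6, at 142 to 130 and at 222 to 210 bases upstream of the start, and in none of the other 6 promoters, against 0.959% of 32851 promoters. The HNF1 palindrome was matched in Slc10a2, Nr1h4 and Abcc2, against 1.24% of all promoters. The letters TTTATG, which CDX factors bind, were in Fabp6, Slc10a2 and Nr1h4, against 10.8% of all promoters, and the letters AGATAA, which GATA factors bind, were in Nr1h4, against 9.99%. TCAAGGTCA, a motif of LRH-1, was found with up to 1 mismatch in 0 of the 7 promoters and in 6.35% of all promoters. These motifs do not overlap each other in the printed stretches, and a match describes letters, not binding. For Nr1h4 the RefSeq start lies 26927 bases inside the gene as the count table draws it, so the window belongs to a downstream start and counts per gene cannot tell the starts apart.

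The levels differed widely between the genes. Per exon length, expressed as CPM per kilobase of exon (RPKM), the median over the 16 libraries was 15957 for Fabp6, 841 for Slc51b, 822 for Slc51a, 113 for Slc10a2, 63.8 for Nr1h4, 59.7 for Fgf15, 30.6 for Abcc2, 19.4 for Abcc3 and 0.769 for Nr0b2. Fabp6 stood above every other gene of the set in each library, its lowest value per length being 3822 and the highest of any other gene 1155. It alone took between 0.150% and 1.62% of a library's counts. Neighbors further down the order overlapped in their ranges: Slc51a ran from 613 to 1059 and Slc51b from 646 to 1155, Nr1h4 from 31.7 to 101 and Fgf15 from 8.46 to 111, and Abcc2 from 10.9 to 76.2 and Abcc3 from 12.3 to 26.8 RPKM. Nr0b2 had the lowest median, and its libraries ran from 0 to 16.4 RPKM, which overlapped the ranges of Fgf15, Abcc2 and Abcc3.

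**Figure D1:**
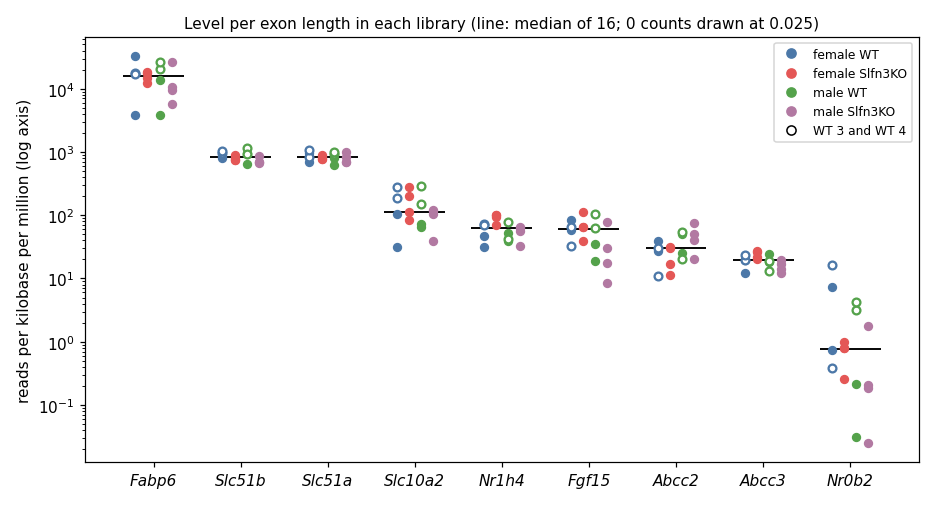
RPKM (log axis) of each gene in each of the 16 libraries, colored by labelled group, with WT 3 and WT 4 as open circles and a line at the median. Fabp6 is at least 3822 in every library, Slc51a and Slc51b lie on top of each other, and Nr0b2 has the lowest median and the widest spread on this axis.

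The genes fell into steady and variable ones. The highest library was 1.73 times the lowest for Slc51a, 1.79 times for Slc51b, 2.18 times for Abcc3 and 3.18 times for Nr1h4. It was 7.00 times the lowest for Abcc2, 8.57 times for Fabp6, 9.24 times for Slc10a2 and 13.1 times for Fgf15, while Nr0b2 had 0 counts in 1 library and up to 459 in another. Against all tested genes, the SD of log2 CPM of Slc51a was larger than that of 33.2% of genes and that of Slc51b than 35.4%, whereas that of Slc10a2 was larger than 92.5%, that of Fgf15 than 93.7% and that of Nr0b2 than 99.4%.

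Slc10a2 encodes the apical carrier that takes up conjugated bile acids with sodium. Its level was 51.4, 173, 305 and 456 CPM in female WT 1 to 4 and 329.8, 139, 181 and 453 CPM in female Slfn3KO 1 to 4. In male WT 1 to 4 it was 105, 118, 475 and 244 CPM, and in male Slfn3KO 1 to 4 it was 168, 187, 196 and 63.0 CPM. The genotypes overlapped in both sexes, and the 4 WT libraries numbered 3 and 4 were the highest of their groups. The pooled log2 fold change was -0.24 (SE 0.436, adjusted p = 0.832, edgeR quasi-likelihood test), with -0.63 in males and 0.15 in females, and it was 0.86 (SE 0.429, adjusted p = 0.761 by edgeR) without WT 3 and 4. Without them it was 0.48 in males (SE 0.448) and 1.29 in females (SE 0.643, adjusted p = 0.260 by edgeR). The direction of Slc10a2 thus turned with these 4 libraries, and no setting passed the threshold. The WT libraries that remained, female WT 1 and 2 and male WT 1 and 2, had 33.7 to 149.5 CPM of Slc2a2. The pooled log2 fold change of Slc2a2 moved from -2.29 to -3.91 without WT 3 and 4, so genotype and Slc2a2 were harder to tell apart. With Slc2a2 as a covariate in all 16 libraries, that of Slc10a2 was -0.55 (SE 0.313, adjusted p = 0.454 by edgeR).

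Fabp6 encodes the ileal bile acid binding protein of the enterocyte cytosol. Its level was 1835, 15679.7, 8349.9 and 8257 CPM in female WT 1 to 4 and 5937, 8521, 7030.4 and 8899 CPM in female Slfn3KO 1 to 4. It was 6563, 1831, 9879 and 12644 CPM in male WT 1 to 4 and 12666, 4532, 5175 and 2725 CPM in male Slfn3KO 1 to 4. The female Slfn3KO libraries lay close together, at 7597 ± 1369 CPM (SD, n = 4), inside the spread of female WT, at 8530 ± 5658 CPM (SD, n = 4). The pooled log2 fold change was -0.24 (SE 0.420, adjusted p = 0.822 by edgeR) and 0.18 without WT 3 and 4. The 3 lowest libraries for Fabp6, male WT 2, female WT 1 and male Slfn3KO 4, were those with the highest Slc2a2.

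Slc51a and Slc51b encode the alpha and beta subunits of the basolateral exporter, which works only as a pair. Slc51a was 1123, 1548, 1312 and 1695 CPM in female WT 1 to 4, 1344, 1229.7, 1231 and 1436 CPM in female Slfn3KO 1 to 4, 1292, 981, 1503 and 1581 CPM in male WT 1 to 4, and 1609.9, 1317, 1103 and 1106 CPM in male Slfn3KO 1 to 4. Slc51b was 428, 391, 473 and 499 CPM in female WT 1 to 4, 393, 361, 365 and 439.9 CPM in female Slfn3KO 1 to 4, 467, 315, 564 and 448 CPM in male WT 1 to 4, and 330.1, 428, 343 and 344 CPM in male Slfn3KO 1 to 4. Both overlapped between genotypes in both sexes. Per length, the ratio of Slc51a to Slc51b was 1.004 ± 0.168 (SD, n = 16) and ran from 0.801 to 1.49, with its narrowest group in female Slfn3KO, at 0.995 to 1.04. The pooled log2 fold change was -0.09 (SE 0.123, adjusted p = 0.768) for Slc51a and -0.26 (SE 0.107, unadjusted p = 0.0289, adjusted p = 0.361) for Slc51b, both by edgeR. Without WT 3 and 4, that of Slc51b was -0.08 (SE 0.119, adjusted p = 0.838 by edgeR) and that of Slc51a was 0.08. With Slc2a2 as a covariate, that of Slc51b was -0.32 (SE 0.0938, unadjusted p = 0.00376, adjusted p = 0.144 by edgeR) and that of Slc51a was -0.14.

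Fgf15 encodes the hormone that the ileum releases in response to FXR. Its level was 154, 105, 118 and 59.9 CPM in female WT 1 to 4, 72.0, 119, 116 and 201 CPM in female Slfn3KO 1 to 4, 63.6, 34.0, 189 and 112 CPM in male WT 1 to 4, and 143, 15.3, 31.4 and 55.8 CPM in male Slfn3KO 1 to 4. It was the most variable of the abundant genes, and the genotypes overlapped in both sexes. The log2 fold change was -0.24 pooled (SE 0.434), -0.70 in males (SE 0.730) and 0.21 in females (SE 0.346), with adjusted p-values of 0.825, 0.925 and 0.731 by edgeR, and 0.16 pooled without WT 3 and 4. The difference between the sexes, female minus male, was 0.91 (SE 0.856, adjusted p = 0.656 by edgeR).

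Nr1h4 encodes FXR itself. Its level was 73.0, 109, 169 and 164 CPM in female WT 1 to 4 and 232, 228, 161 and 218 CPM in female Slfn3KO 1 to 4. In male WT 1 to 4 it was 121, 89.7, 183 and 97.4 CPM and in male Slfn3KO 1 to 4 it was 143, 129, 151 and 73.9 CPM. In females, 3 of the 4 Slfn3KO libraries were above every WT library and the fourth was below female WT 3 and 4, and in males the genotypes overlapped throughout. The log2 fold change was 0.70 in females (SE 0.268, unadjusted p = 0.0296, adjusted p = 0.273 by edgeR), 0.02 in males (SE 0.288) and 0.36 pooled (SE 0.219, adjusted p = 0.537). The difference between the sexes was 0.68 (SE 0.411, adjusted p = 0.495 by edgeR). Without WT 3 and 4 the log2 fold change was 1.20 in females (SE 0.237, adjusted p = 0.111 by edgeR), 0.27 in males (SE 0.292) and 0.70 pooled (SE 0.243, adjusted p = 0.761), and the difference between the sexes was 0.95 (SE 0.390, adjusted p = 0.152). The 2 libraries with the highest Nr1h4, female Slfn3KO 1 and 2, were the 2 with the lowest enterocyte sums and had smooth muscle sums of 30.9 and 66.5 CPM, and the part of these markers in the result was not tested. With Slc2a2 as a covariate it was 0.19 in females (SE 0.134, adjusted p = 0.762 by edgeR) and 0.10 pooled. In the same females Slc2a2 had a log2 fold change of -5.05 (SE 1.55, adjusted p = 0.237 by edgeR and 0.0159 by DESeq2). Without WT 3 and 4 that of Slc2a2 was -6.03 (SE 0.803, adjusted p = 0.0909 by edgeR). Genotype and Slc2a2 thus moved together in these females and cannot be told apart there.

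Nr0b2 encodes SHP, a co-repressor that FXR induces. It had few counts in most libraries, between 0 and 29 counts in 11 of 16. Its level was 0.848, 8.19, 18.6 and 0.436 CPM in female WT 1 to 4, 0.293, 0.916, 1.13 and 0.893 CPM in female Slfn3KO 1 to 4, 0.239, 0.0357, 3.65 and 4.81 CPM in male WT 1 to 4, and 2.02, 0, 0.212 and 0.237 CPM in male Slfn3KO 1 to 4. Male WT 2 had 1 count and male Slfn3KO 2 had 0 counts, which allows up to 0.110 CPM. The 4 highest libraries were all WT, yet the genotypes overlapped in both sexes. The pooled log2 fold change was -2.49 (SE 0.963, unadjusted p = 0.0203, adjusted p = 0.336 by edgeR), and it was -3.12 in females (SE 1.09, adjusted p = 0.257), where it was -1.96 without female WT 3 alone (adjusted p = 0.223). Without WT 3 and 4 the pooled value was -0.96 (SE 1.17, adjusted p = 0.818 by edgeR). In females it was -2.48 (adjusted p = 0.154) without them, and the difference between the sexes moved from -1.31 (SE 1.87, adjusted p = 0.788) to -4.64 (SE 1.96, adjusted p = 0.161). In males Nr0b2 fell under the count filter of the edgeR fit, and with no filter its log2 fold change was -1.78 (SE 1.62, adjusted p = 0.812 by edgeR). Of the 4 libraries with the highest Nr0b2, 3 were among the 4 with high B cell markers, namely female WT 3 and male WT 3 and 4. In female WT 3 and 4 and male WT 3 and 4, Cd79a was 50.8, 56.3, 90.1 and 18.2 CPM beside 18.6, 0.436, 3.65 and 4.81 CPM of Nr0b2, and a part of B cells or of lymphoid tissue in this difference was not tested.

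Abcc2 encodes MRP2, an apical export pump for conjugated organic anions, and Abcc3 encodes MRP3, a basolateral one. Abcc2 was 228, 331, 92.9 and 261 CPM in female WT 1 to 4, 147, 95.9, 261 and 266 CPM in female Slfn3KO 1 to 4, 217, 424, 176 and 455 CPM in male WT 1 to 4, and 649.8, 432, 176 and 351 CPM in male Slfn3KO 1 to 4. Abcc3 was 114, 70.1, 110.2 and 134 CPM in female WT 1 to 4, 153, 124, 117 and 149.5 CPM in female Slfn3KO 1 to 4, 138, 105, 109 and 74.6 CPM in male WT 1 to 4, and 70.6, 111, 96.2 and 79.1 CPM in male Slfn3KO 1 to 4. The genotypes overlapped for both genes in both sexes. The pooled log2 fold change was 0.04 for Abcc2 (SE 0.323, adjusted p = 0.967) and 0.04 for Abcc3 (SE 0.161, adjusted p = 0.924), both by edgeR. Abcc3 had a log2 fold change of 0.34 in females and -0.25 in males, a difference of 0.60 (SE 0.291, adjusted p = 0.461 by edgeR), the lowest adjusted p-value of the set for a difference between the sexes, and 0.996 without WT 3 and 4 (SE 0.320, adjusted p = 0.0871), where it was 0.56 in females and -0.42 in males. That of Abcc2 in females moved from -0.25 to -0.54 (SE 0.420, adjusted p = 0.435 by edgeR). Per length, the ratio of Abcc2 to Abcc3 ran from 0.518 in the library with 0.557 CPM of Slc2a2 to 6.15 in the library with 23.7 CPM.

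**Figure D2:**
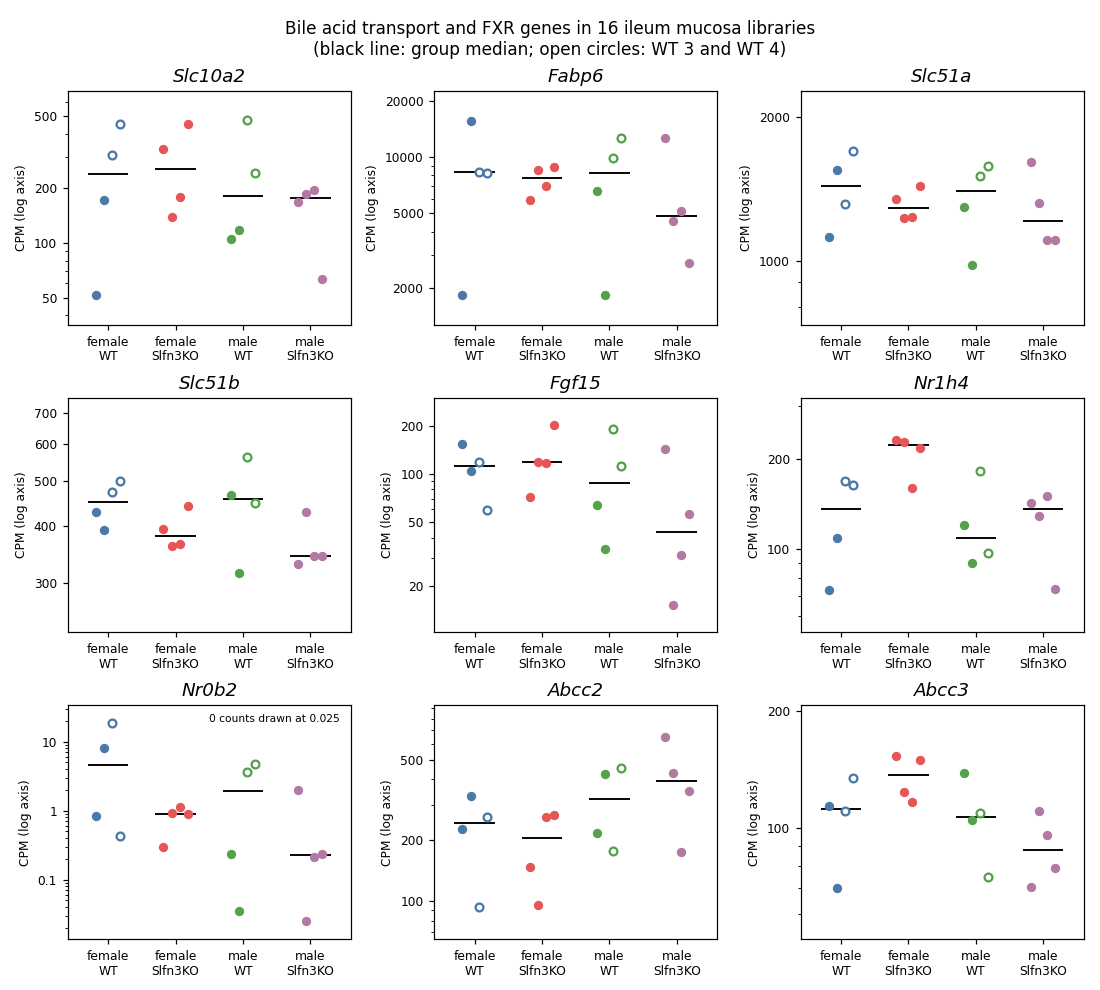
CPM (log axes) of the 9 genes in the 4 libraries of each labelled group, with the group median as a line and WT 3 and WT 4 as open circles; a library with 0 counts of Nr0b2 is drawn at 0.025. Within each labelled sex the genotypes overlap in every panel, and Nr1h4 has 3 of 4 female Slfn3KO libraries above all female WT libraries.

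Counted together, the comparison of genotypes called no gene of the set. With both an adjusted p-value under 0.05 and at least a 1.5-fold difference required, edgeR called 0 of 9 genes pooled, where 0.0% of 14822 tested genes passed, and 2 of 9 had an unadjusted p-value under 0.05 (Nr0b2 and Slc51b), where 11.9% of all tested genes did. In females it called 0 of 9, where 0.0% of 14064 genes passed, with 2 of 9 at the unadjusted level (Nr1h4 and Nr0b2) beside 17.1% of all genes. In males it called 0 of the 8 that passed the filter, where 0.0% of 14124 genes passed, with 0 at the unadjusted level beside 3.84% of all genes. The difference between the sexes was called for 0 of 9, where 0.0% of 14822 genes passed, with 0 at the unadjusted level beside 11.1% of all genes. DESeq2 also called 0 of the genes in each of these comparisons, while it called 71 of all genes pooled, 523 in females, 19 in males and 14 for the difference between the sexes. No gene of the set had groups without overlap in either labelled sex, beside 2.34% of genes in males and 8.16% in females. With sex taken from Xist and Ddx3y, the lowest Abcc3 in female Slfn3KO was 117 CPM and the highest in female WT 114 CPM. The share of all genes without overlap was not counted for that grouping, so no result is drawn from it. The log2 fold change was below 0 for 6 of 9 genes pooled, with a median of -0.24 beside 0.00 over all tested genes, of which 50.7% were below 0. It was below 0 for 6 of 8 in males and 5 of 9 in females, beside 50.4% and 51.1% of all genes, and the difference between the sexes was below 0 for 3 of 9, beside 49.3%.

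**Figure D3:**
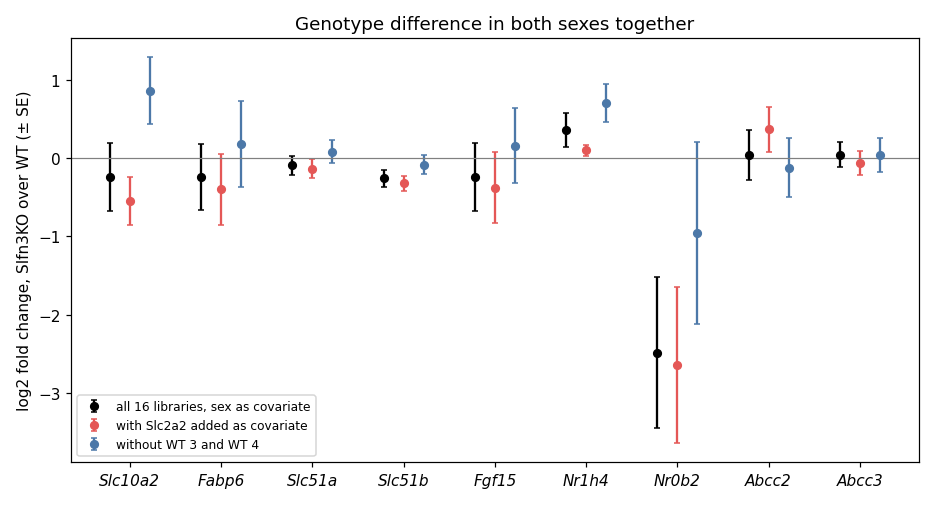
Log2 fold change of Slfn3KO over WT in both sexes together, with SE, in all 16 libraries, with Slc2a2 added as a covariate and without WT 3 and WT 4. Slc10a2 moves from -0.24 to -0.55 with the covariate and to 0.86 without the 4 libraries, and Nr1h4 narrows from 0.36 to 0.10 with the covariate.

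Along the level of Slc2a2, Nr1h4 fell most evenly. The slope is the change in log2 expression for each doubling of Slc2a2, with genotype and sex held as covariates, and Slc2a2 is itself a measured value of the same libraries. Nr1h4 fell by 0.18 per doubling (SE 0.0151, adjusted p = 3.01e-06 by edgeR), rank 20 of 14821 genes by p-value. Ordered from the lowest to the highest Slc2a2, Nr1h4 was 232, 228 and 218 CPM in the first 3 libraries and 89.7, 73.0 and 73.9 CPM in the last 3. Within WT it was 169 CPM at 1.09 CPM of Slc2a2 and 73.0 CPM at 149.5 CPM, and within Slfn3KO it was 232 CPM at 0.503 CPM and 73.9 CPM at 194 CPM. The slope of Nr1h4 was -0.20 (adjusted p = 0.00166 by edgeR) without WT 3 and 4 and lay between -0.20 and -0.17 with each library left out in turn, past the threshold each time.

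Slc10a2 also fell with Slc2a2, by 0.30 per doubling (SE 0.0693, adjusted p = 0.00588 by edgeR). It was 63.0 and 51.4 CPM in the 2 libraries with the highest Slc2a2, and 139 CPM in female Slfn3KO 2, where Slc2a2 was 0.557 CPM, so the low end was uneven. The call was lost without WT 3 and 4, where the slope was -0.23 (adjusted p = 0.154), and under the replicate block, which adds the replicate number to the fit, where it was -0.28 (adjusted p = 0.0900). Abcc2 rose with Slc2a2, by 0.18 per doubling (SE 0.0638, adjusted p = 0.0455 by edgeR), close to the threshold. It was lost in 5 of the other settings, among them without WT 3 and 4 (slope 0.19, adjusted p = 0.176) and with the replicate block (slope 0.19, adjusted p = 0.140), and also without any of 12 of the 16 libraries, with adjusted p-values of up to 0.141.

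The remaining genes did not pass. The slope was -0.05 for Slc51b (SE 0.0193, adjusted p = 0.0801), -0.07 for Abcc3 (SE 0.0314, adjusted p = 0.106), -0.03 for Slc51a (SE 0.0253, adjusted p = 0.377), -0.09 for Fabp6 (SE 0.0991, adjusted p = 0.495), -0.09 for Fgf15 (SE 0.0871, adjusted p = 0.472) and -0.16 for Nr0b2 (SE 0.204, adjusted p = 0.572), all by edgeR. Fabp6 did not run evenly along Slc2a2: it was 5937 to 8899 CPM in the 3 libraries with the lowest Slc2a2, 15679.7 and 12644 CPM where Slc2a2 was 62.5 and 93.4 CPM, and 1831 to 2725 CPM in the 3 with the highest. On a scale set by epithelial genes in place of the total, Slc51a, Slc51b and Abcc3 passed, with slopes of -0.07, -0.08 and -0.10. Abcc2 did not pass on it (slope 0.15, adjusted p = 0.0841 by edgeR). This scale moved the median slope of all genes from -0.008 to -0.043.

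In all, 3 of 9 genes had a slope past the threshold, beside 30.8% of the 14821 genes tested, so the share in the set was near that of all genes. Of all genes 2347 rose and 2218 fell, and on the epithelial scale 1018 rose and 4598 fell. With the replicate block 1788 genes passed in place of 4565.

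**Figure D4:**
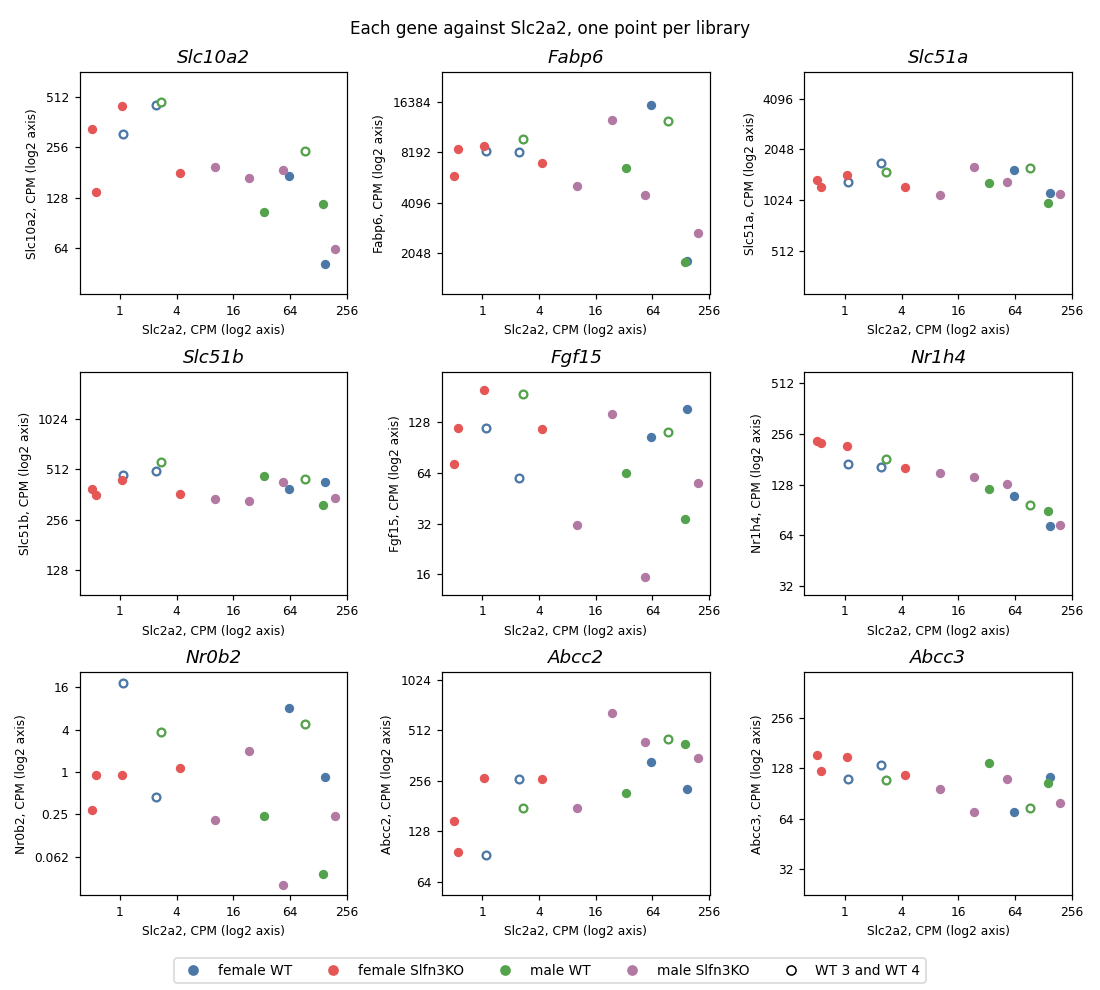
CPM of each gene against CPM of Slc2a2 (log2 axes) in the 16 libraries, colored by labelled group, with WT 3 and WT 4 as open circles; the panel of Nr0b2 covers a wider range than the others, with 0 counts drawn at 0.025. Nr1h4 falls from 232 to 73.9 CPM in a narrow band, Slc51a and Slc51b are nearly level, and Fabp6 drops in the 3 libraries with the highest Slc2a2.

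**Figure D5:**
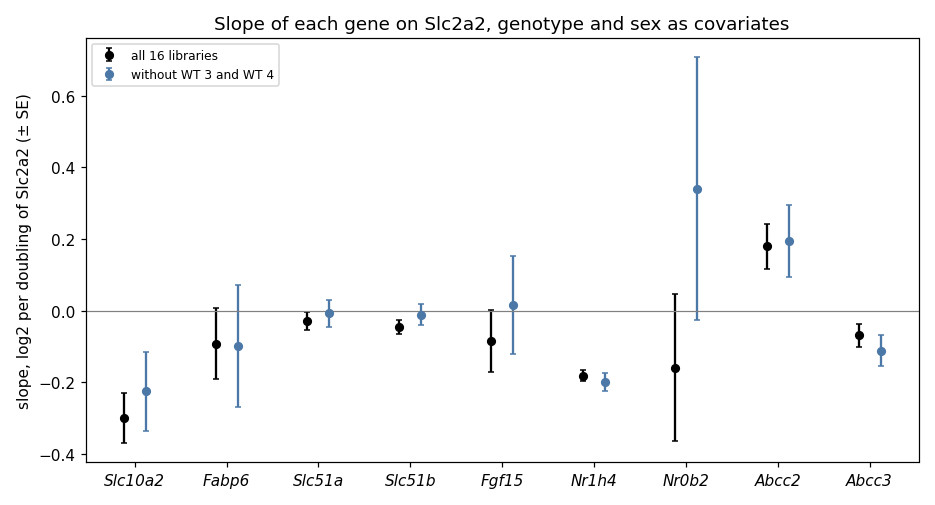
Slope of each gene in log2 units per doubling of Slc2a2, with SE, in all 16 libraries and without WT 3 and WT 4. Nr1h4 has the smallest error, at -0.18, and the slopes of Fgf15 and Nr0b2 change sign without the 4 libraries.

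No other nuclear receptor or regulator around FXR that was listed fell with Slc2a2. Of 14 listed genes 13 were tested, and 8 rose and 0 fell at the same threshold, with a median slope of 0.07 beside -0.01 over all genes. Of all 14821 genes 30.8% passed, 2347 rising and 2218 falling. Nr1i3, the xenobiotic receptor CAR, rose by 0.46 per doubling (SE 0.0440, adjusted p = 1.09e-05), Nr1h3, the oxysterol receptor LXR alpha, by 0.14 (SE 0.0169, adjusted p = 7.26e-05), and Vdr, the vitamin D receptor, by 0.07 (SE 0.0197, adjusted p = 0.0126), all by edgeR. Nr5a2, the receptor LRH-1, had a slope of 0.00 (adjusted p = 0.970) and Rxra, the FXR partner RXR alpha, of 0.05 (adjusted p = 0.0861). Gata4 rose by 0.70 (SE 0.102, adjusted p = 0.000292 by edgeR). Gpbar1, the membrane receptor for bile acids, had at most 10 counts in a library and was not tested.

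Among other carriers of bile acids and organic anions, 6 of 9 were tested, and 1 rose and 3 fell, beside 30.8% of all genes past the threshold. Abcc1, the export pump MRP1, fell by 0.19 (SE 0.0320, adjusted p = 0.000649), Abcc4, the pump MRP4, by 0.14 (SE 0.0331, adjusted p = 0.00559) and Abcg2, the pump BCRP, by 0.07 (SE 0.0263, adjusted p = 0.0486), and Slco2a1, a prostaglandin carrier, rose by 0.10 (SE 0.0358, adjusted p = 0.0450), all by edgeR. The hepatic carriers Slc10a1 and Abcb11 had at most 1 and 6 counts in a library. Of 8 genes of bile acid synthesis, conjugation and the FGF15 receptor 4 were tested, and 1 rose: Cyp27a1, a sterol hydroxylase, by 0.24 (SE 0.0280, adjusted p = 4.52e-05 by edgeR). That 1 of 4 is near the share of all genes. Cyp7a1, the rate-limiting enzyme of hepatic synthesis, had 0 counts in all 16 libraries. In the comparison of genotypes, pooled, 0 genes of these 3 lists passed, and Fgfr4, the FGF15 receptor, had the lowest adjusted p-value, at 0.333 (log2 fold change 0.77, SE 0.283).

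Slc2a2 as a stand-in was set beside other position markers. Of 7 other proximal markers tested, Gata4, Lct, Fabp1, Rbp2 and Apoa4 rose with Slc2a2, and Cybrd1 and Slc40a1 fell, by 0.18 and 0.44 per doubling. Of the 6 distal markers 1 rose, Amn, by 0.16, and 0 fell, beside 30.8% of all genes past the threshold. The slope was above 0 for 5 of the 6. The listed markers thus did not all follow the position that Slc2a2 stands for. With the mean of the proximal list in place of Slc2a2, the slope of Nr1h4 was -0.35, past the threshold, that of Slc10a2 was -0.55 (adjusted p = 0.0266) and that of Abcc2 was 0.37 (adjusted p = 0.0582), in log2 units per doubling of that mean.

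The genes most like the uptake pair were named by their correlation, over the 16 libraries, with the mean of standardized Slc10a2 and Fabp6, among 10015 genes. They were Slc13a1, a sulfate carrier (r = 0.968), Epb41l4a (r = 0.949), Slc25a48 (r = 0.941), Rnf180 (r = 0.927) and Lpcat4, an acyltransferase of phospholipid remodeling (r = 0.918). The most opposite were Casp6, a caspase (r = -0.956), Zfpm1, a cofactor of GATA factors (r = -0.916), and Slc9a8, a sodium-proton exchanger (r = -0.896). Within the set, Slc51a had an r of 0.820 with that mean, Nr1h4 of 0.707, Nr0b2 of 0.532, Slc51b of 0.470, Fgf15 of 0.353, Abcc3 of 0.0629 and Abcc2 of -0.141. These values describe the 16 libraries, which differ in genotype, sex and the level of Slc2a2, and carry no test.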

How the data were processed

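Ileum mucosa RNA of 16 mice was sequenced as single reads over several lanes from stranded libraries. The authors used cutadapt for trimming and STAR for alignment to mm10, and the deposited table holds raw counts per gene, not normalized, which its header credits to featureCounts 1.4.6 with reverse-stranded counting. The study's methods name HTSeq as the counter. The table also gives the exon length of each gene, in bases. Gene symbols were matched by identifier to GENCODE M21, for 45143 of 46078 genes. Coordinates were not taken from it, since 4 of the 9 genes differ there from the count table.

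Groups follow the sex and genotype of the sample labels. The members and gene lists were chosen with earlier results of these data known. The genes named are the 9 members, Slc2a2, those listed genes that a result turns on, and the 5 genes most like and the 3 most opposite to Slc10a2 and Fabp6 among genes of a mean CPM of at least 5.

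CPM used TMM factors of edgeR 4.0.16 in R 4.3.3, and log2 CPM a prior count of 2. Tests were edgeR's robust quasi-likelihood F tests after filterByExpr, fitted across all genes with Benjamini-Hochberg adjustment. The pooled fit had sex as a covariate, the fits within each sex had none, and the slope on log2 CPM of Slc2a2 had genotype and sex. A genotype difference was called at an adjusted p-value under 0.05 and at least 1.5-fold, and a slope at an adjusted p-value under 0.05. SE is the absolute log2 value divided by the square root of F. The labels do not say that mice came from separate litters, so p-values measure the spread between these mice.

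The alternatives were RLE factors, DESeq2 1.42.0, no filter, no fold threshold, other covariates, all groups in one fit, a scale set by epithelial genes, the proximal list in place of Slc2a2, the replicate number as a block, each mouse left out and the fit without WT 3 and 4. The replicate numbers come from the sample titles and name different mice. Deviations of same-numbered libraries from their group means correlated at 0.229, 0.318, 0.518 and 0.138 in males and at -0.364, 0.143, -0.337 and -0.114 in females. The main fits took no pairing from the numbers, and only the replicate block did, in both sexes. All values in males were positive, and the male fits without the block do not take this into account. No 2 libraries of a group agreed within sampling noise. Each fit was also run on simulated counts, whose dispersions were estimated from these data.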

Additional observations from a re-analysis of the deposited data

Results flagged for a closer look

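Among 40 groups of 4 libraries (9 genes and Slc2a2 in 4 groups each), 3 held a library whose gap to the nearest other, over the group's range, passed Dixon's critical value for 4 samples, and chance alone gives about 1 in 20. Slc51b in male Slfn3KO 2 was 428 CPM, above 330.1, 343 and 344 CPM in the others of its group (gap 0.855 of the range). Nr0b2 in male Slfn3KO 1 was 2.02 CPM, from 55 counts, above 0, 0.212 and 0.237 CPM (0.883 of the range). Slc2a2 in female Slfn3KO 3 was 4.32 CPM, above 0.503, 0.557 and 1.06 CPM (0.855 of the range), and the same library had the lowest Nr1h4 of its group, at 161 CPM.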

How the results depend on the processing

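No alternative called a gene of the set between the genotypes. Of 262 member log2 fold changes under alternatives other than leaving out 1 mouse, 243 kept their direction and 19 turned, with the cause not tested in any. Without WT 3 and 4 the pooled log2 fold change turned to 0.86 for Slc10a2, 0.18 for Fabp6, 0.082 for Slc51a, 0.16 for Fgf15 and -0.12 for Abcc2, that in males to 0.48 for Slc10a2, 0.61 for Fabp6, 0.20 for Slc51a and 0.36 for Fgf15, that in females to -0.028 for Fgf15, and the difference between the sexes to -0.81 for Fabp6 and -0.38 for Fgf15. With the Slc2a2 covariate it turned to -0.065 for Abcc3 pooled and, in females, to -0.66 for Slc10a2 and 0.31 for Abcc2. On the epithelial scale it turned to -0.078 for Nr1h4 in males and 0.053 for Slc51a between the sexes, where this scale moved the median of all genes from -0.0016 to -0.084 and from 0.01 to 0.12, so that both turns were about as large as the shift of all genes. With the replicate block it turned to 0.14 for Fabp6 in females and 0.037 for Nr0b2 between the sexes, and the block called 0 genes in each genotype comparison and 1788 genes for the slope. Slopes turned without WT 3 and 4 to 0.015 for Fgf15 and 0.34 for Nr0b2.

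The count of all genes called was 71 pooled, 19 in males, 523 in females and 14 between the sexes with DESeq2, in place of 0 with edgeR. It was 1 pooled and 95 in females with the Slc2a2 covariate, and 359 between the sexes without WT 3 and 4. The slope count ran from 1968, without female WT 1, to 4884 with each mouse left out. It was 3873 with no filter.

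With each mouse left out in turn, 0 genes were called between genotypes. Log2 fold changes that turned ran, pooled, from -0.42 to 0.064 for Slc10a2, -0.58 to 0.023 for Fgf15, -0.13 to 0.17 for Abcc2 and -0.064 to 0.12 for Abcc3. In males they ran from -0.90 to 0.042 for Fabp6, -0.19 to 0.030 for Slc51a and -0.11 to 0.29 for Nr1h4, and in females from -0.19 to 0.63 for Slc10a2, -0.51 to 0.29 for Fabp6 and -0.091 to 0.43 for Fgf15. Between the sexes they ran from -0.22 to 0.72 for Fabp6, -0.16 to 0.061 for Slc51a, -0.015 to 0.23 for Slc51b and -2.05 to 0.70 for Nr0b2. The slope of Fgf15 ran from -0.15 to 0.022 and that of Nr0b2 from -0.34 to 0.0080.

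Depth limited Nr0b2, whose level rested on 0 to 29 counts in 11 of 16 libraries.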
